A study of Mus musculus with 6 samples.

Results

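The circadian clock genes described here are 10 genes, Per1, Per2, Per3, Dbp, Tef, Nr1d1, Nr1d2, Arntl, Clock and Npas2, of 18193 genes with a probe set that names a single gene on the array. They were taken by gene symbol, which gave 26 of 34945 such probe sets, and all 10 genes had a mean signal of at least 100 over the arrays. RNA of lung cells was measured on 6 Affymetrix Mouse Genome 430 2.0 arrays, 3 from Bmi1 wild-type mice and 3 from mice whose genotype is given as Bmi1 null (mutant in the sample titles), called null-labelled here. All mice were 4-month-old females on a mixed Bl6/129 background. After digestion of the lungs with dispase and collagenase, live cells that carried neither CD31 nor CD45 were sorted, and their RNA was amplified to cDNA. The samples of a genotype are titled biological replicates, with no word on whether each is 1 mouse or a pool, so the tests weigh differences only against the spread among these samples. The labels give neither the hour at which lungs were collected nor the light schedule, and do not say which part of Bmi1 is missing in the null allele.

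The mammalian clock is a feedback loop of transcription that runs in nearly every cell, lung cells included. CLOCK, or its relative NPAS2, pairs with BMAL1, the product of Arntl, and the pair binds E-box elements to switch on the Per genes, the Nr1d genes and the output factors Dbp and Tef. PER proteins feed back on the pair, while the REV-ERB receptors encoded by Nr1d1 and Nr1d2 repress Arntl, Clock and Npas2 through ROR elements (ROREs), so the last 3 genes peak at the opposite time of day. The 7 targets are called E-box phase genes here, and Arntl, Clock and Npas2 the opposite phase genes.

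Promoter stretches that hold the letters of a known clock motif are shown so that the elements named above can be seen in member genes. Promoters of 9 of the 10 members were matched by symbol in a RefSeq table of build GRCm38.p6, which holds 250 bases before and 50 bases from each start on. The motifs were searched on both strands: the E-box (CACGTG, its own reverse complement), the E-prime-box (CACGTT or AACGTG), the D-box bound by DBP and TEF (TTATGNAA or TTNCATAA) and the core of the RORE (TAGGTCA or TGACCTA). Below are the 250 bases before the start of Per1 (chr11:69098699-69098948, plus strand), Per3 (chr4:151044666-151044915, minus strand), Tef (chr15:81802423-81802672, plus strand) and Nr1d1 (chr11:98775378-98775627, minus strand), and 30 bases around the match of Arntl (chr7:113207529-113207558, plus strand), all 5′ to 3′ with the matches in capitals.
Per1: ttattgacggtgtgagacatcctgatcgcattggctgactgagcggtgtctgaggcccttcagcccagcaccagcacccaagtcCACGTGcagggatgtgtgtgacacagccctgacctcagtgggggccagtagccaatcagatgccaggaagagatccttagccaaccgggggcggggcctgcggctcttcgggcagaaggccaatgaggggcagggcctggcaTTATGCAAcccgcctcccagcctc
Per3: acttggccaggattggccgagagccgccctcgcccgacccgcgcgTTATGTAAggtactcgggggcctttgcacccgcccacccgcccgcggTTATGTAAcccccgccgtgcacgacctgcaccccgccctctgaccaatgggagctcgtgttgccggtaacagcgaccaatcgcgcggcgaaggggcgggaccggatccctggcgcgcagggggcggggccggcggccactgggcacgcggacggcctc
Tef: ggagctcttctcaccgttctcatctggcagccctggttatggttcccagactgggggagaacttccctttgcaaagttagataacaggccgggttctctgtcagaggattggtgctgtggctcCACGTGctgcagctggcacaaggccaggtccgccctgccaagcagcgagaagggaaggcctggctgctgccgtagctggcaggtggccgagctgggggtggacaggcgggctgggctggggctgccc
Nr1d1: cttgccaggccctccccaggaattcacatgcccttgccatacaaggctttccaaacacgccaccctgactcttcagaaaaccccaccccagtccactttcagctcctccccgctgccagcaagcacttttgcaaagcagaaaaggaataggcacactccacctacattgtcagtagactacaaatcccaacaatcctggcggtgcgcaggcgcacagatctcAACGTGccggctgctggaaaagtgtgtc
Arntl: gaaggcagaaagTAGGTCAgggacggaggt

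Counted from the start, the Per1 promoter held an E-box at -166 to -161 and a D-box at -24 to -17. The single Per3 promoter held a pair of D-boxes, at -205 to -198 and at -158 to -151. An E-box lay at -127 to -122 before the Tef start shown and at -138 to -133 before its other start. Nr1d1 held an E-prime-box at -28 to -23, and Arntl a RORE core at 31 to 37 past 1 of its starts. Dbp, Nr1d2, Clock and Npas2 held none of these letters in this window. The 9 member genes had 14 promoters in the table. The E-box was found in 3 of these 14 (2 genes) and in 7.15% of all 32851 promoters, the D-box in 2 of 14 and 3.38%, the E-prime-box in 1 of 14 and 4.68%, and the RORE core in 1 of 14 and 2.61%. None of the matches overlapped another, and a match of letters is a description, not a site of binding.

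Before the members, the arrays were checked. Neither probe set of Bmi1 was lower in the arrays labelled null: one read 1047 ± 102 in wild type and 1446 ± 151 in the null-labelled arrays (SD, n = 3 each), the other 588 ± 83.4 and 665 ± 147. On the brighter of these probe sets, every null-labelled array (1276, 1498 and 1565) was above every wild-type array (996, 980 and 1164). Whether either probe set lies in the missing part of Bmi1 is not known here. They therefore cannot check the genotype, and every direction below rests on the labels. Ptprc, which encodes CD45, read 7716 ± 966 and 5767 ± 852 (SD, n = 3 each), and Pecam1, which encodes CD31, 2247 ± 506 and 2939 ± 247, so markers of the gated-out cells were bright in both genotypes. In such bulk RNA, fewer cells of a type and less RNA per cell cannot be told apart. Pearson correlations of log2 signals over all genes were 0.970 to 0.979 within a genotype and 0.957 to 0.973 across genotypes.

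The clock genes split the null-labelled arrays. On the probe set that stands for each gene, replicates 1 and 2 read above every wild-type array in 5 of 7 E-box phase genes, against 15.5% of all genes, and below every wild-type array in 3 of 3 opposite phase genes, against 16.3%. The grouping of replicates 1 and 2 was read from these same values, so the shares over all genes give a scale and no test. Null-labelled replicate 3 lay within the wild-type range or beyond it on the other side in all 10. No member passed the test between the genotypes: limma called 0 of 10 at an adjusted p under 0.05, against 0.923% of all 18193 genes tested (0.412% higher and 0.511% lower). At an unadjusted p under 0.05 it was 1 of 10 (Dbp), against 14.5% of all genes. The arrays of the genotypes overlapped in all 10 members, while they did not overlap in 20.5% of all genes.

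**Figure D1:**
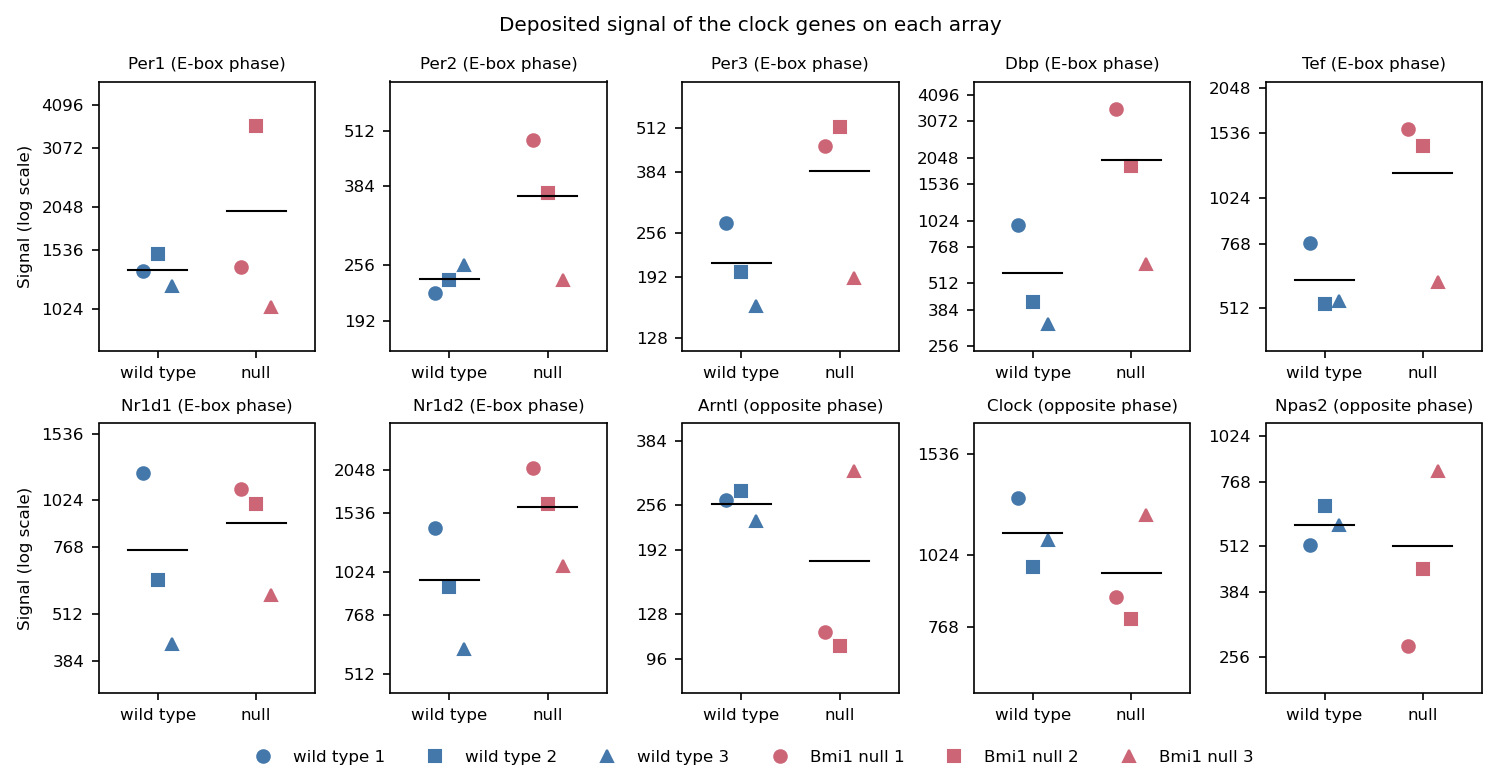
Deposited signal (log-scaled axis, a separate range in each panel) of the 10 clock genes on the 3 wild-type and 3 null-labelled arrays, with marker shape for the replicate and a line at each group's mean. Null-labelled replicate 3 (triangle) sits among the wild-type arrays for Dbp at 635, while replicates 1 and 2 sit at 3515 and 1868.

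Among the output factors, Dbp, a leucine zipper activator that binds D-boxes and has one of the steepest daily rhythms known, had the greatest difference of the members. Its signal was 975, 415 and 327 on wild-type replicates 1, 2 and 3 and 3515, 1868 and 635 on the null-labelled ones. Replicates 1 and 2 of the null-labelled arrays were the highest, and replicate 3 lay below wild-type replicate 1. The means were 572 ± 351 and 2006 ± 1445 (SD, n = 3 each), a difference of 1.63 ± 0.66 on the log2 scale (SE, adjusted p = 0.330). Log2 values here are of signal plus an offset of 16, which understates the change of dim probe sets. Signals spanned 10.8 times from the lowest to the highest array.

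Tef, a close relative of Dbp that binds the same D-boxes, read 772, 527 and 536 in wild type and 1577, 1419.8 and 604 in the null-labelled arrays. Its arrays fell in the same order of groups, with null-labelled replicate 3 between the wild-type values. The log2 difference was 0.86 ± 0.38 (SE, n = 3 each, adjusted p = 0.365). This order rests on the brightest Tef probe set. On its other probe sets, with mean signals of 183 and 80.3, null-labelled replicates 1 and 2 lay within the wild-type range. With all Tef probe sets averaged the difference was 0.30 ± 0.26 (SE, limma adjusted p = 0.658).

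The Per genes encode the negative arm of the loop. Per2 read 222, 237 and 257 in wild type and 488, 371 and 237 in the null-labelled arrays, a difference of 0.53 ± 0.27 on the log2 scale (SE, adjusted p = 0.424). Per3 read 274, 198 and 158 against 454, 516 and 190.1, a difference of 0.75 ± 0.39 (adjusted p = 0.443). For both, null-labelled replicates 1 and 2 were above all wild-type arrays and replicate 3 was within their range. Per1, which signals such as glucocorticoids and cAMP also induce directly, departed from this order. It read 1329, 1486 and 1195 in wild type and 1367, 3566 and 1037 in the null-labelled arrays, so replicate 2 alone was high and replicate 3 was the lowest of all 6. Its log2 difference was 0.36 ± 0.44 (adjusted p = 0.768), and without null-labelled replicate 2 it turned to -0.16 (adjusted p = 0.777).

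Nr1d1 and Nr1d2 encode the heme-binding repressors REV-ERB alpha and beta. Nr1d2 read 1380.1, 928 and 608 in wild type and 2082, 1625.5 and 1069 in the null-labelled arrays, a difference of 0.73 ± 0.36 on the log2 scale (SE, adjusted p = 0.418). Nr1d1 read 1214, 631 and 424 against 1096.5, 1002 and 573. Its highest array was wild-type replicate 1, and all null-labelled arrays lay within the wild-type range. The Nr1d1 difference was 0.31 ± 0.42 (adjusted p = 0.804), and -0.030 without wild-type replicate 3.

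The opposite phase genes ran the other way on the same arrays. Arntl, which encodes the BMAL1 partner of CLOCK and NPAS2, read 263, 279 and 231 in wild type and 114, 104 and 317 in the null-labelled arrays. Null-labelled replicates 1 and 2 were below all wild-type arrays, and replicate 3 was the highest of the 6. The wild-type spread was narrow (258 ± 24.4, SD, n = 3) and the null-labelled one wide (178 ± 120.5, SD, n = 3), with a difference of -0.66 ± 0.39 on the log2 scale (SE, adjusted p = 0.510). Npas2, which can stand in for Clock, read 516, 659 and 586 against 275, 444 and 819.8, again with replicate 3 the highest and replicates 1 and 2 the lowest. Its log2 difference was -0.32 ± 0.37 (adjusted p = 0.763), and 0.048 without null-labelled replicate 1. Clock, whose transcript cycles least in most tissues, read 1286, 975 and 1088 against 866, 793 and 1203. It spanned 1.62 times from the lowest to the highest array, the narrowest range of the members, with a difference of -0.24 ± 0.22 on the log2 scale (adjusted p = 0.682).

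The members had 16 further probe sets. Of all 18 probe sets of E-box phase genes 16 lay above 0, and of 8 of opposite phase genes 8 lay below 0, but probe sets of a gene share the same RNA and are not replicates. In a fit over all 45037 probe sets, limma called 0 of these 26, against 0.404% of all, and 5 of 26 had an unadjusted p under 0.05, against 13.0% of all. The brightest Dbp probe set carries a suffix that Affymetrix gives to probe sets that can match several transcripts. Its other probe set read 217, 102 and 34.4 in wild type and 588, 444 and 169 in the null-labelled arrays, a difference of 1.74 ± 0.64 on the log2 scale (SE, adjusted p = 0.321). The second Arntl probe set read 94.9, 174 and 139 against 63.3, 50.7 and 89.0, a difference of -0.85 ± 0.27 (adjusted p = 0.258). There, null-labelled replicate 3 was below all wild-type arrays, unlike on the brighter probe set. The same held for a second Clock probe set, at 363, 353 and 373 against 253, 313 and 338, and for the second Npas2 probe set, at 111, 188 and 113 against 55.9, 115 and 105. Over all 8 probe sets of the opposite phase genes, null-labelled replicate 3 was above every wild-type array in 2, within their range in 2 and below every one in 4, so its high place in these genes rests on the probe set chosen for each. Replicates 1 and 2 were both below every wild-type array in 5 of these 8, and both above in 11 of the 18 of the E-box phase genes. These counts include the probe sets that stand for the genes. Among the others it was 2 of 5 below and 6 of 11 above, with 1 of the 11 below. The shares over all probe sets were not computed. A Per3 probe set at -0.21 and a Tef probe set at -0.26, with mean signals of 62.2 and 183, ran against the other probe sets of their genes.

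**Figure D2:**
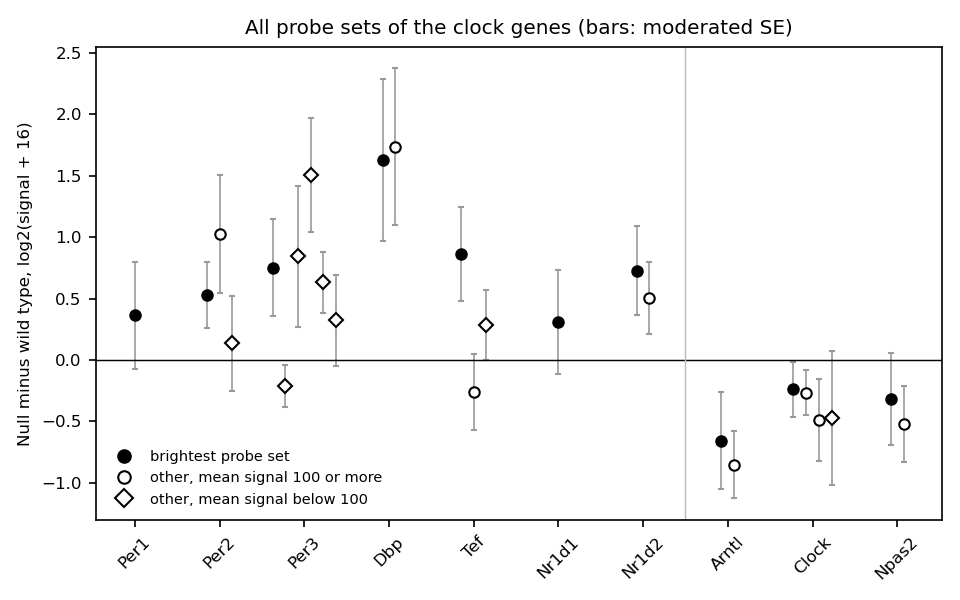
Log2 difference, null-labelled minus wild type, of each of the 26 probe sets of the clock genes, with bars for the moderated standard error, filled points for the probe set that stands for its gene and diamonds for a mean signal below 100. The 8 probe sets of Arntl, Clock and Npas2 lie below 0 and 16 of the 18 others lie above it.

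Set against each other, the phase groups placed null-labelled replicates 1 and 2 apart from the other 4 arrays. For each array the mean log2 value of the 3 opposite phase genes was taken from that of the 7 E-box phase genes and centred on the mean over all 6 arrays. This difference was -0.17, -0.67 and -0.87 on the wild-type arrays, in replicate order, and 1.40, 1.21 and -0.89 in null-labelled replicates 1 to 3. Null-labelled replicate 3 thus had the lowest value, next to wild-type replicate 3. With all probe sets of a gene averaged, the values were -0.095, -0.67 and -0.96 against 1.26, 0.93 and -0.46, so null-labelled replicate 3 was then within the wild-type range and no longer the lowest. The E-box phase genes alone gave 0.05, -0.44 and -0.72 in wild type and 0.78, 0.73 and -0.40 in the null-labelled arrays. The opposite phase genes gave 0.22, 0.23 and 0.15 against -0.62, -0.48 and 0.496.

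**Figure D3:**
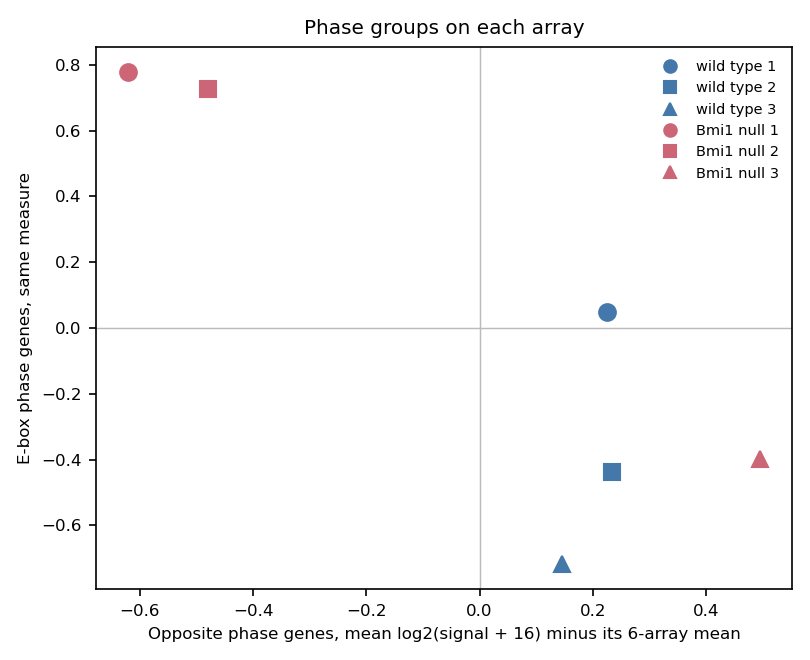
Mean log2(signal + 16) of the 7 E-box phase genes (vertical axis) against that of the 3 opposite phase genes (horizontal axis), each centred on its mean over the 6 arrays, 1 point per array. Null-labelled replicates 1 and 2 lie at the upper left, at 0.78 and 0.73 on the vertical axis, and null-labelled replicate 3 lies on the side of the wild-type arrays.

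Between the genotypes the phase difference was 1.14 ± 0.76 (null-labelled minus wild type, log2, SE over arrays, n = 3 each), with no test because the members were chosen with earlier results known. Its SD was 0.36 among wild-type arrays and 1.27 among null-labelled ones. Without null-labelled replicate 3 it was 1.88 ± 0.23, and 7 of 10 members then had an unadjusted p under 0.05 in limma, against 14.0% of all genes, with 0 called and a lowest adjusted p of 0.0925 (Arntl). Replicate 3 stood apart in these same genes, so leaving it out narrows their spread, and this count is a description, not support for a difference. Without wild-type replicate 1, 2 of 10 members had an unadjusted p under 0.05 in limma, against 14.0% of all genes. With any of the remaining 4 arrays left out it was 0 of 10, against 11.0% to 14.4% of all genes. Without null-labelled replicate 1 the phase difference was 0.73 ± 1.07, and without null-labelled replicate 2 it was 0.82 ± 1.17. The median of the 7 E-box phase genes was 0.73, against 0.99 without null-labelled replicate 3 and 0.0059 over all genes, and that of the opposite phase genes was -0.32, against -0.71.

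**Figure D4:**
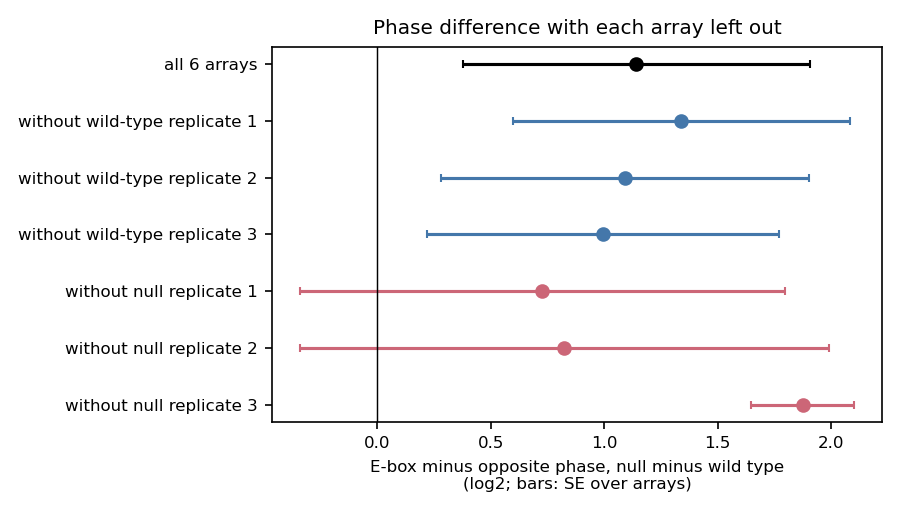
E-box phase minus opposite phase, null-labelled minus wild type on the log2 scale, over all 6 arrays and with each array left out, with bars for the standard error over arrays. The value is 1.14 with all arrays, 1.88 without null-labelled replicate 3 and 0.73 without null-labelled replicate 1.

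The place of null-labelled replicate 3 differed between the lists of cell type markers. The 5 natural killer cell markers, of which 3 were called lower, had mean log2 levels of 9.55, 10.4 and 10.3 in wild type and 7.30, 7.20 and 7.72 in the null-labelled arrays. The 4 measured B cell markers, all called lower, lay at 9.62 to 10.1 against 6.74 to 7.41, lowest in null-labelled replicate 3. The 7 fibroblast markers, of which Col1a1 was called higher, lay at 11.5, 11.0 and 10.4 against 11.8, 11.7 and 11.7. The 6 smooth muscle and pericyte markers lay at 9.69, 8.46 and 7.95 against 10.5, 10.2 and 10.4. Of these 6, limma called 0, although 6 of 6 had an unadjusted p under 0.05, against 14.5% of all genes. On the wild-type arrays both lists fell from replicate 1 to 3, as did the E-box phase genes. With the fibroblast level as a covariate the phase difference was 0.54 ± 1.32. The 4 neutrophil markers, of which Stfa2l1 was called higher, lay at 9.76 to 10.2 in wild type and at 12.1, 12.8 and 11.2 in null-labelled replicates 1 to 3, an order shared with the E-box phase genes in that replicate 3 was the lowest of its group. The part of these cell types in the clock values was not tested. The ratio of 3′ to 5′ Gapdh control signals was 4.85 to 5.88 in wild type and 5.24, 5.24 and 5.94 in the null-labelled arrays.

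Of the other genes of the clock, 16 of 18 listed were measured, with 8 above 0 and a median of 0.0076. Of these 16, limma called 0, against 0.923% of all genes. At an unadjusted p under 0.05 there were 3 of 16 (Cry2, Bhlhe40 and Timeless), against 14.5% of all genes. Between the genotypes 3 of 16 did not overlap, against 20.5% of all genes. Cry2, a partner of the PER proteins in repression, read 2011, 1553 and 1545 in wild type and 2771, 3139.6 and 2127.5 in the null-labelled arrays. Here replicate 3 was also above all wild-type arrays, and the log2 difference was 0.64 ± 0.21 (SE, adjusted p = 0.238). Its paralog Cry1 differed by 0.04 (adjusted p = 0.953).

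Bhlhe40, which encodes DEC1, a repressor that competes for E-boxes, read 7858, 9403 and 8131 in wild type and 5998, 5736 and 5587 in the null-labelled arrays. All 3 null-labelled arrays were below all wild-type arrays, with a difference of -0.55 ± 0.16 on the log2 scale (SE, adjusted p = 0.182). With an intensity trend and a robust prior, Bhlhe40 was the 1 gene of the 16 that limma called (adjusted p = 0.0243). Its relative Bhlhe41 was dim and differed by -1.04 ± 0.52 (adjusted p = 0.429). Timeless, better known for its part at replication forks, differed by -0.59 ± 0.23 (adjusted p = 0.307). Nfil3, a repressor of D-box genes, read 2808, 3484 and 3072 against 2439.8, 2479 and 2716, without overlap, and differed by -0.29 ± 0.16 (adjusted p = 0.479). Arntl2, a paralog of Arntl, differed by 0.71 ± 0.40 (adjusted p = 0.479) at mean signals of 29.6 and 53.3. E-box targets Ciart, a repressor, and Hlf, a further D-box factor, differed by 0.46 (adjusted p = 0.585) and 0.68 (adjusted p = 0.569).

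**Figure D5:**
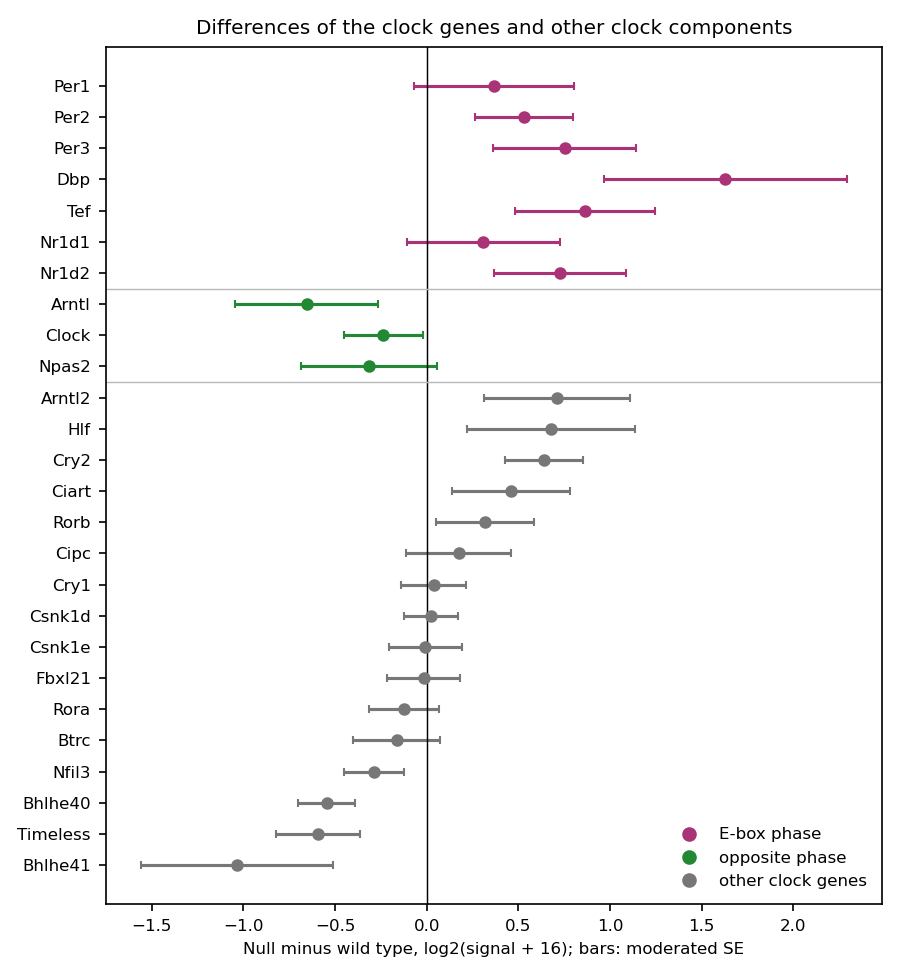
Log2 difference, null-labelled minus wild type, of the 10 clock genes and of 16 other clock genes, with bars for the moderated standard error. Dbp lies highest at 1.63 and Bhlhe41 lowest at -1.04, and none of the 26 genes passed an adjusted p under 0.05.

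Among 7 measured outputs of the clock that cycle in many organs, 4 lay above 0, with a median of 0.10. Of these 7, limma called 0, against 0.923% of all genes. At an unadjusted p under 0.05 there was 1 of 7, against 14.5%, and 2 of 7 did not overlap between the genotypes, against 20.5%. Tspan4, a tetraspanin, read 279, 108 and 176 in wild type and 731, 391 and 275 in the null-labelled arrays, a difference of 1.22 ± 0.43 on the log2 scale (SE, adjusted p = 0.268). As for Dbp, null-labelled replicates 1 and 2 were the highest and replicate 3 was within the wild-type range. The deubiquitinase gene Usp2 read 222, 375 and 244 against 331, 665 and 287, with replicate 2 alone above the wild type (0.52 ± 0.35, adjusted p = 0.566). Nampt, the rate-limiting enzyme of NAD salvage, and Lonrf3 were lower on all 3 null-labelled arrays than on any wild-type array, at -0.42 (adjusted p = 0.404) and -0.38 (adjusted p = 0.404). Wee1, a kinase that delays mitosis, differed by 0.32 (adjusted p = 0.493), Coq10b by -0.073 (adjusted p = 0.882) and Tsc22d3 by 0.10 (adjusted p = 0.887).

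Of 11481 other genes with a mean signal of at least 100, those most like the phase difference across the 6 arrays by Pearson correlation were Pnpla2 (r = 0.995), a lipase of stored fat, the metallothionein Mt1 (0.992), Nars (0.983), Sdr39u1 (0.977) and Stox2 (0.975). The most opposed were Agfg1 (-0.992), Acot2 (-0.988), Rock1 (-0.984), Hcfc2 (-0.982) and Txndc17 (-0.980). These were the extremes of many correlations over 6 arrays and are given as a description. Pnpla2 read 886, 812 and 729.9 in wild type and 1225, 1202 and 748 in the null-labelled arrays.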

How the data were processed

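Affymetrix Expression Console 1.1 is the tool named in the submitters' processing notes, and the deposited file holds intensity values of probe sets, not on a log scale. How probes were summarized, and whether each was detected, is not given in the sources used here. The mean without the highest and lowest 2% of values lay between 500.0023 and 500.0025 on every array, which is a common scaling, so a shift shared by all genes cannot be seen. Values were turned to log2(signal + 16). Of 45101 probe sets, 64 controls were left out, and 932 with several symbols and 9160 with none entered no gene-level test. Each gene was represented by its brightest probe set (mean log2 value over all arrays). Genotypes were compared with limma 3.58.1 (lmFit, eBayes) under R 4.3.3, over all 18193 genes, with Benjamini-Hochberg adjustment and calls at an adjusted p under 0.05. Standard errors of differences are the moderated ones of limma, which also gave all adjusted p values. The fit was tested on simulated arrays in which genes varied independently and some were shifted by known amounts. Departures of a single array over a set of genes were not simulated. Precision is limited by the number of arrays.

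The members and lists were chosen with earlier results of these data known. Named genes are the 10 members, of each companion list the called genes and up to 6 with the smallest p, up to 2 of each marker list, and the 5 genes most and the 5 least correlated with the phase difference. Ptprc and Pecam1 were added to check the sort, and Cry1, Ciart, Hlf and Tsc22d3 after their values were seen. The alternatives were offsets of 1 and 64, quantile normalization, median centring, the mean of probe sets, a filter on genes below a mean signal of 100, a trended robust prior, array weights, a replicate block, a fibroblast covariate, leaving out each array, and, chosen after seeing the data, no probe sets with the suffixes for several transcripts. Figures were drawn with matplotlib 3.10.9.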

Additional observations from a re-analysis of the deposited data

How the results depend on the processing

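No clock gene was called under any of the 17 alternatives, and the lowest adjusted p of a member was 0.0925, for Arntl without null-labelled replicate 3. Of 170 member values under the alternatives 165 kept their direction. The 5 others were Per1 without null-labelled replicate 2, Nr1d1 with the fibroblast covariate (-0.77) and without wild-type replicate 3, Nr1d2 with the fibroblast covariate (-0.14) and Npas2 without null-labelled replicate 1, and the cause was not tested. With an array left out Per1 ranged from -0.16 to 0.72, Nr1d1 from -0.030 to 0.71 and Npas2 from -0.71 to 0.048. The phase difference ranged from 0.73 to 1.88 with an array left out and from 0.54 to 1.19 under the other alternatives. The array weights, which are lower for arrays that vary more over all genes, were 0.548 for null-labelled replicate 2. They were 1.055 to 1.167 for the other arrays, null-labelled replicate 3 included (1.114). With these weights the phase difference was 1.04 ± 0.77 (SE).

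Over all genes, 168 were called (75 higher, 93 lower). With median centring it was 120 higher and 88 lower, and the median of all genes was then 0.10. The count was 33 with an offset of 1, 265 with an offset of 64, 308 among genes with a mean signal of at least 100, where fewer were tested, 438 with the trended robust prior, 0 with the fibroblast covariate (1236 at an unadjusted p under 0.05), and 2 to 76 with an array left out. Of the 16 other clock genes 1 was called with the trended robust prior. The labels do not say whether same-numbered arrays were handled together. The deviations of same-numbered arrays from the group means correlated at 0.07, 0.05 and 0.03, each the highest for its array. A batch shared by replicate number was not tested. With the replicate block 0 genes were called (2611 at an unadjusted p under 0.05), 4 of 10 members had an unadjusted p under 0.05, and the lowest adjusted p of a member was 0.134. Dim probe sets limit the precision: 8 of the 26 had a mean signal below 100.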

Other observations

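Genes that glucocorticoids induce, a hormone signal that follows the time of day and also acts on Per1, were measured beside the clock. Of 10 listed, all 10 lay above 0, against 50.7% of all genes, with a median log2 difference of 0.29. Tsc22d3 among them was also counted with the clock outputs. Of these 10, limma called 0, against 0.923% of all genes. An unadjusted p under 0.05 was found for 2, against 14.5% of all genes, and 3 did not overlap between the genotypes, against 20.5%. Cebpd, a leucine zipper factor of the acute phase, read 2543, 2441 and 2095 in wild type and 4258.5, 3941 and 3981 in the null-labelled arrays, a difference of 0.78 ± 0.16 (SE, n = 3 each, adjusted p = 0.0852). Fkbp5, a co-chaperone of the glucocorticoid receptor, read 1103, 761 and 1052 against 1868, 2048 and 1175.5, a difference of 0.77 ± 0.27 (adjusted p = 0.257). Its null-labelled replicate 3 was nearest to the wild-type arrays, while Cebpd was alike on all 3 null-labelled arrays. Sgk1 differed by 0.24 (adjusted p = 0.513), Klf9 by 0.29 (adjusted p = 0.538) and Mt1 by 0.34 (adjusted p = 0.556).

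Immediate early genes, which tissue digestion can switch on, were bright on every array apart from Junb. Junb read 283, 316 and 305 in wild type and 402, 432 and 284 in the null-labelled arrays. Of 12 listed, 11 lay above 0, against 50.7% of all genes, with a median of 0.14. Among these 12, limma called 0 (0.923% of all genes) and none had an unadjusted p under 0.05 (14.5% of all genes). The genotypes did not overlap in 3 (20.5% of all genes). Dusp1 was on this list and on that of the glucocorticoid genes. Null-labelled replicate 2, on which Per1 stood out, was the highest of the 6 arrays in 9 of these 12 genes. The share of all genes in which it was the highest was not computed, so this count has no scale. From the lowest to the highest array the 12 genes spanned 1.103 times (Atf3) to 1.6053 times (Nr4a1), and Per1 3.4385 times. Ier3 read 8176, 7702 and 7563 in wild type and 10367, 11582 and 8379.9 in the null-labelled arrays, a difference of 0.36 ± 0.18 (SE, n = 3 each, adjusted p = 0.420). The part of these responses in the clock values was not tested.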
